A study of Mus musculus with 6 samples.

Results

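The genes described here encode the proteins of the cytoplasmic ribosome. They were taken by symbol, as every probe set whose platform annotation gives a single gene symbol that starts with Rpl or Rps followed by a number, together with Rplp and Rpsa, without the ribosomal S6 kinases and without pseudogenes. The rule found 105 probe sets of 49 genes, of 45037 probe sets and 18193 genes with a probe set of their own, and 26 of the genes belong to the large subunit and 23 to the small one. A further 110 probe sets name a ribosomal protein gene beside other symbols, and 29 ribosomal protein genes are named only there, so that they could not be followed as single genes. None of the 105 probe sets belongs to a gene of the trisomic region.

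Expression was measured with Affymetrix mouse genome arrays on neurospheres, floating colonies grown for 7 days from neural stem cells and progenitors of the lateral wall of the lateral ventricles. The Ts1Cje group (3 arrays) came from adult female Ts1Cje mice, a model of Down syndrome on the C57BL/6 strain. These mice carry an extra copy of distal chromosome 16, joined to the end of chromosome 12, in which Sod1 at the break is not functional. The disomic group (3 arrays) came from female C57BL/6 littermates, and all mice were 84 days old. All RNA was amplified by 2 cycles of labelling. The labels call the arrays of a genotype biological replicates, and the p-values measure the spread between these neurosphere cultures.

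Each cytoplasmic ribosome joins a large and a small subunit, and nearly every ribosomal protein is present once in each particle, so cells make these proteins in balanced amounts. Their mRNAs are among the most abundant of growing cells and start with a run of pyrimidines, the TOP motif, through which mTORC1 and LARP1 set how strongly they are translated. Loss of a single copy of several of these genes causes Diamond-Blackfan anaemia in humans, and neural stem cells depend on high ribosome production as they divide.

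Around the starts of the genes on which the results below turn, pyrimidine runs differ in length and place. A run that does not cover the start does not show the motif. The windows are 30 bases long, centred on the transcription start that RefSeq gives on build GRCm38.p6, and the capitals mark the longest unbroken run of C and T.
Rpl13a: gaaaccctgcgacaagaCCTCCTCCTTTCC
Rps9: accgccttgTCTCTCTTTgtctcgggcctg
Rps19: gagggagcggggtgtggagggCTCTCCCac
Rpl27a: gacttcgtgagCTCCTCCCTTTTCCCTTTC
Rps24: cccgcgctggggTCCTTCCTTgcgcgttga
The first is chr7:45128731-45128760 on the minus strand. The others lie on the plus strand, Rps9 at chr7:3704026-3704055, Rps19 at chr7:24884898-24884927, Rpl27a at chr7:109519180-109519209 and Rps24 at chr14:24490663-24490692. For Rps19, which has 3 listed starts, and Rps24, which has 2, the window with the longest run is shown. The longest run in each of their other windows was 4. The run covers the start itself for Rps9, Rpl27a and Rps24, and lies downstream of it for Rpl13a and Rps19. RefSeq windows were found for 43 of the 49 genes, and 27 of their 51 windows (52.9%) held a run of at least 6 pyrimidines on the sense strand, against 9592 of 32851 windows of all genes (29.2%). A run of at least 8 was found in 19 windows (37.3%), against 3943 windows of all genes. Runs anywhere in the window were counted, also those wholly upstream of the start. These matches describe the letters of the window only.

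The values are log2 intensities, made by the authors with GCRMA. For each probe set M gives the difference between genotypes, Ts1Cje minus disomic, of these log2 values averaged within a genotype, and A gives their average over all 6 arrays. A probe set with A above 5 was taken as expressed. This held for 16371 probe sets, among them 88 of the 105 ribosomal protein probe sets, which cover 44 of the 49 genes. Array medians lay between 2.69 and 2.71 and correlations between arrays were 0.991 to 0.997. The 44 expressed trisomic genes, which check the labels, stood on average 0.21, 0.25 and 0.29 above their mean on the Ts1Cje arrays and 0.22 to 0.26 below it on the disomic arrays. Of the marker lists, all 9 neural stem and progenitor genes on the array were expressed, as were 3 of 5 astrocyte and 3 of 5 oligodendrocyte genes, whereas none of the neuronal, microglial, vascular, ependymal or erythroid markers was. The 3 astrocyte genes had an M between 0.10 and 0.81, and the summed level of all 5 ran from 42.5 to 47.4 in Ts1Cje and from 42.9 to 45.3 in disomic cultures. The difference between 3′ and 5′ control probe sets, which grows as RNA is degraded or cut short in labelling, was 2.02 ± 0.21 for actin in Ts1Cje and 1.67 ± 0.15 in disomic samples, and 2.34 ± 0.09 for Gapdh in Ts1Cje and 2.18 ± 0.10 in disomic samples (log2, SD, n = 3 each), without overlap in either case. The part of either in the values below was not tested. In bulk cultures fewer cells of a type and less RNA per cell cannot be told apart.

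Ribosomal protein probe sets were among the brightest on the array. An A above 11 was found for 53 of the 88 (60.2%), against 11.1% of all expressed probe sets, and an A above 13 for 25 (28.4%), against 2.08%. The median A of the 44 genes, each represented by its brightest expressed probe set, was 12.76, against 8.47 for all 8947 expressed genes. The brightest were Rps29 (A 14.61), Rpl13a (14.58), Rps20 (14.33) and Rps4x (14.26), and the dimmest Rpl39 (6.06), Rpl27a (6.15), Rpl12 (6.32) and Rpl14 (7.66). Signal depends on the probes as well as on the transcript, so this order is one of signal and not of abundance. The 17 probe sets with A up to 5 include every single-symbol probe set of 5 genes (Rpl3l, Rpl39l, Rps4l, Rps16 and Rps27). The other 12 belong to 10 genes that an expressed probe set also represents. A low signal of such a probe set does not show that its gene is not expressed, and probe sets of several symbols were left out here.

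The ribosomal protein genes as a group stood at nearly the same level in Ts1Cje and in disomic neurospheres. Of the 44 genes, 24 had an M above 0 and 20 an M below 0, and the median M was 0.02 (quartiles -0.07 and 0.08), equal to the median of 0.02 over all expressed genes, of which 46.1% lay below 0. An M within 0.3 of 0 was found for 41 of the 44 genes (93.2%), against 82.1% of all genes. This comparison was not matched for signal. Within 0.3 lay 74.4% of all expressed probe sets with A between 5 and 8 and 96.2% of those with A above 13. The 24 large subunit genes split into 12 above and 12 below 0, with a median M of 0.00. The 20 small subunit genes split into 12 and 8, with a median of 0.04. Of 22 listed genes whose human counterparts are mutated in Diamond-Blackfan anaemia, 13 had a probe set of their own and 12 were expressed. These 12 split evenly, 6 and 6, with a median of 0.01 and each of them within 0.3 of 0.

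Few ribosomal protein probe sets differed between the genotypes by the threshold of the study, a moderated t of 4 from limma. None of the 88 had a t above 4, where 0.965% of all expressed probe sets did, and 2 (2.27%) had a t below -4 (Rps19 and Rpl13a), where 0.812% did. All 3 Ts1Cje values lay above all 3 disomic values for 1 probe set (1.14%, Rpl27a), against 5.53% of all expressed probe sets. They lay below them for 5 (5.68%, a probe set each of Rps19, Rpl13a and Rpl37 and a pair of Rps9), against 5.21% of all. An unadjusted p under 0.05 was found for 3 of the 88 (3.41%, a probe set each of Rps19, Rpl13a and Rps9), against 6.18% of all. None passed an adjusted p of 0.05 (Benjamini-Hochberg over all probe sets), which 1 of the 16371 expressed probe sets did (0.00611%).

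**Figure D1:**
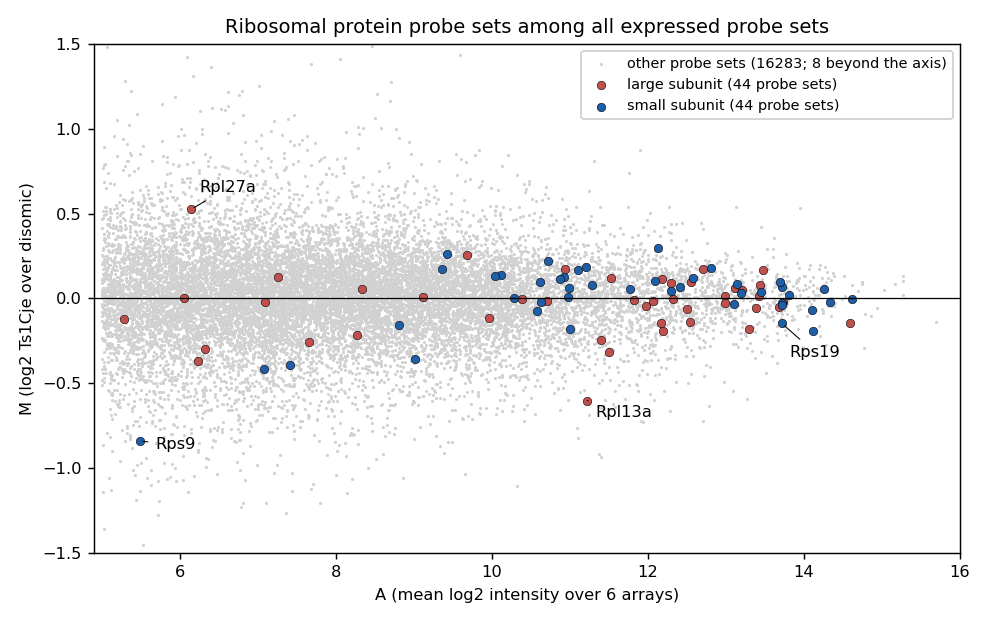
M (log2 Ts1Cje over disomic, vertical axis) against A (mean log2 intensity, horizontal axis) for every expressed probe set, with the 44 large subunit probe sets in red, the 44 small subunit ones in blue and the other 16283 in grey, 8 of which lie outside the vertical range. Ribosomal protein probe sets gather at high A and close to an M of 0. All 25 above an A of 13 lie inside 0.3, as do 96.2% of all 340 expressed probe sets there. The lowest and highest M, Rps9 at -0.84 and Rpl27a at 0.52, belong to dim probe sets, while Rpl13a at -0.60 has an A of 11.22.

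Rps19, a small subunit protein needed to mature that subunit and the gene most often mutated in Diamond-Blackfan anaemia, had the largest t of the group. Its only probe set, 1449243_a_at, read 13.64, 13.63 and 13.65 in Ts1Cje neurospheres and 13.80, 13.78 and 13.79 in disomic ones. The genotypes did not overlap, and the values within each genotype were nearly identical. The M was -0.15 (SE 0.00682, t = -21.6), a 0.903-fold level, with an unadjusted limma p of 1.39e-05 and an adjusted p of 0.313. This t rests on the spread within genotypes of 0.00868, a smaller one than those of all but 29 of the 16371 expressed probe sets, since the prior degrees of freedom of 0.336 left each probe set to be judged almost wholly by its own spread. With a prior variance that follows intensity the t was -4.29 (adjusted p = 1). The adjusted p ran from 0.300 to 1 over the settings tried.

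Rpl13a, a large subunit protein that in human cells also takes part in a complex that silences translation of inflammatory mRNAs, read lower in Ts1Cje neurospheres with all 4 of its expressed probe sets. Probe set 1433928_a_at read 10.84, 10.76 and 11.16 in Ts1Cje neurospheres and 11.60, 11.42 and 11.55 in disomic ones, without overlap. Its M was -0.60 (SE 0.129, t = -4.68, limma adjusted p = 1), a 0.659-fold level. The other 3 had an M of -0.32 (1455001_x_at), -0.15 (1417608_a_at) and -0.15 (1455485_x_at), and none of these passed the threshold. The last of them, the brightest, read 14.38, 14.49 and 14.66 in Ts1Cje neurospheres and 14.71, 14.60 and 14.67 in disomic ones, which overlap. The t of 1433928_a_at was no longer past 4 when Ts1Cje replicate 1 (t = -3.59), Ts1Cje replicate 2 (-3.95), disomic replicate 1 (-3.58) or disomic replicate 3 (-3.61) was left out.

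Rps9, a small subunit protein that binds early in the assembly of that subunit, had 3 expressed probe sets, each with an M below 0 and none past the threshold. The brightest, 1434624_x_at, read 14.06, 13.95 and 14.04 in Ts1Cje neurospheres and 14.14, 14.30 and 14.18 in disomic ones, without overlap, with an M of -0.19 (SE 0.058, t = -3.31, limma adjusted p = 1). Probe set 1433689_s_at had an M of -0.18 and overlapping genotypes. The dimmest, 1426958_at, read 5.81, 4.30 and 5.09 in Ts1Cje neurospheres and 5.98, 5.87 and 5.87 in disomic ones. Its M of -0.84 was the lowest of all 88 probe sets, and its Ts1Cje values spread far more widely than its disomic ones. Without Ts1Cje replicate 1 its t was -4.29. Rps19, Rpl13a and Rps9 lie on chromosome 7, as do Rpl27a, which had the highest M of the group, and Rps3 and Rplp2, with an M of -0.04 and -0.05.

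**Figure D2:**
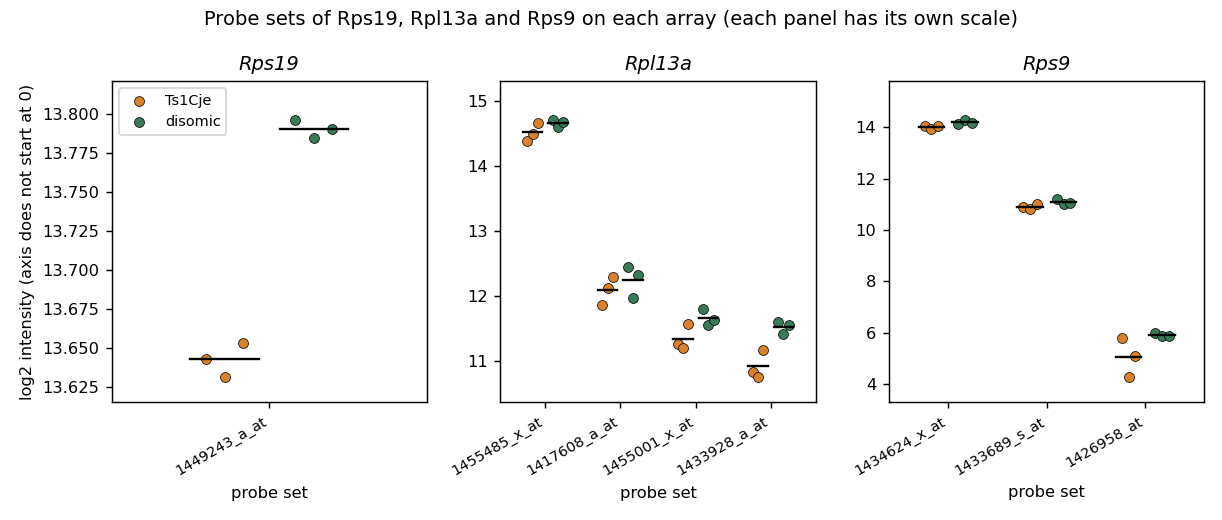
Log2 intensity (vertical axis, a scale of its own in each panel and not starting at 0) of every expressed probe set of Rps19, Rpl13a and Rps9, with 1 point per array, Ts1Cje in orange to the left, disomic in green to the right, and a bar at each mean. The 2 groups of Rps19 are separated by 0.15 with almost no spread, while the probe sets of Rpl13a and Rps9 lie at different intensities and have an M between -0.60 and -0.15 and between -0.84 and -0.18.

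The highest M belonged to Rpl27a, a large subunit protein, with 6.14, 6.26 and 6.82 in Ts1Cje neurospheres and 6.06, 5.62 and 5.97 in disomic ones (1437729_at). The genotypes did not overlap, but the M of 0.52 (SE 0.239, limma adjusted p = 1) came from a probe set close to the lower limit for expression and was 0.32 without Ts1Cje replicate 3. The next genes were Rps15, which touches the decoding site (M 0.18), Rps14, whose human counterpart is lost in a form of myelodysplasia (0.18), Rpl37a (0.17), Rpl38, required for the patterning of the axial skeleton in mice (0.17), and Rpl7a (0.17). Their t-statistics ran from 0.53 to 1.29. With single arrays left out the M of Rps14 ran from 0.08 to 0.27, that of Rpl38 from 0.05 to 0.26 and that of Rpl7a from 0.02 to 0.27, and those of Rps15 and Rpl37a crossed 0. Rps15 read 11.01, 11.17 and 11.73 in Ts1Cje neurospheres and 11.31, 10.56 and 11.50 in disomic ones, so that the arrays of a genotype differed by more than the genotypes did.

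By the brightest probe set of each gene, the lowest M belonged to Rps25, a small subunit protein needed for initiation at some viral internal entry sites, with 8.41, 8.72 and 9.38 in Ts1Cje neurospheres and 9.47, 8.84 and 9.26 in disomic ones (M -0.35, SE 0.327, t = -1.08). Its M was -0.14 without Ts1Cje replicate 1 and -0.63 without Ts1Cje replicate 3. Rpl12, at the base of the stalk that recruits elongation factors, had an M of -0.30, which was -0.07 without Ts1Cje replicate 2. Rpl14 had one of -0.26 and Rpl37 one of -0.22. Rpl37 read 8.14, 8.17 and 8.17 in Ts1Cje neurospheres and 8.25, 8.62 and 8.26 in disomic ones, without overlap but with a single high array, and t = -1.86. Without disomic replicate 2 its M was -0.10 with t = -6.21. The adjusted p of each was 1.

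Of the genes listed for the stalk and for the 5S particle, which have functions of their own, 3 of 4 and 1 of 2 could be followed. None of these passed the threshold. Rplp0, the core of the stalk, had an M of -0.05 (13.66 ± 0.12 in Ts1Cje neurospheres and 13.71 ± 0.14 in disomic ones, SD, n = 3 each), and Rplp2, which extends from it, also had an M of -0.05. Rpl11, which joins the 5S rRNA and binds the p53 inhibitor Mdm2 when ribosome assembly fails, read 12.31, 12.12 and 12.52 in Ts1Cje neurospheres and 12.18, 12.21 and 12.57 in disomic ones, with an M of 0.00 (SE 0.162).

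The paralogues of ribosomal proteins differed widely in signal. Rpl3l, known from striated muscle, and Rpl39l, known from testis, stood at the floor of the array (A 2.23 and 2.24), and Rps4l was below the limit for expression (A 3.66). Rpl22l1, the paralogue of Rpl22, was bright (A 12.20) and read 12.10, 12.02 and 12.17 in Ts1Cje neurospheres and 12.16, 12.32 and 12.40 in disomic ones, with an M of -0.19 (SE 0.080, t = -2.43). Without disomic replicate 1 its M was -0.26 and its t -4.24. Rpl7l1 had an M of -0.11 with its brightest probe set and of 0.01 and 0.13 with its other expressed ones, the last of which had a t of 4.59 without Ts1Cje replicate 2. Rps27l, a p53 target in human cells, had an M of 0.06.

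M was more widely spread in dim than in bright ribosomal protein probe sets. The 11 ribosomal protein probe sets with A between 5 and 8 had a median M of -0.26, with 8 below 0 and 5 within 0.3 of it, whereas all 8151 expressed probe sets of that range had a median of 0.01. The 24 between 8 and 11 had a median of 0.03 and the 28 between 11 and 13 one of 0.05. The 25 above 13 had a median of 0.00 and ran from -0.19 to 0.17. Their spread within genotypes (median SD 0.128) was close to the 0.123 of all 340 probe sets in that range. The median SD of the ribosomal protein probe sets was 0.208 between 11 and 13, against 0.167 of all. It was 0.226 between 8 and 11, against 0.212, and 0.220 between 5 and 8, against 0.271.

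Probe sets of a single gene did not always move together. Among the 20 genes with several expressed probe sets the widest difference in M was that of Rps9 (0.66), followed by Rps24 (0.53), a small subunit gene whose human counterpart is mutated in Diamond-Blackfan anaemia. The dimmest Rps24 probe set, 1455195_at, had an M of -0.39 (A 7.42), and the other 4 had an M between 0.06 and 0.14 (A 10.05 to 11.76). For both genes the probe set that stood apart was the dimmest. The 38 ribosomal protein probe sets whose identifier ends in _x_at, which can bind several transcripts, had a median M of 0.02, and the 19 that end in _at one of -0.05. The 97 expressed probe sets that name several symbols had a median M of 0.04, with 60 above and 37 below 0.

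The clearest pattern among the ribosomal protein genes lay between arrays and not between genotypes. On replicate 3 of both genotypes most ribosomal protein genes were at their highest, a pattern noticed after the values were seen. For 23 of the 44 genes (52.3%) and 49 of the 88 probe sets (55.7%) replicate 3 was the highest array within Ts1Cje and also within disomic neurospheres, against 13.9% of all expressed probe sets. Averaged over the 44 genes, the deviation from each gene's mean was -0.07, -0.09 and 0.16 on Ts1Cje arrays 1 to 3 and 0.01, -0.11 and 0.09 on disomic arrays 1 to 3. Over all expressed genes the same averages ran from -0.02 to 0.02.

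This pattern was seen in both subunits and in bright probe sets. The large subunit genes showed it in 13 of 24 cases and the small subunit genes in 10 of 20. Among probe sets with A above 11 it held for 35 of 53 ribosomal protein probe sets (66.0%), against 255 of all 1820. By kind of probe set it held for 28 of 38 ending in _x_at (73.7%, against 18.2% of all such probe sets) and for 4 of 19 ending in _at (21.1%, against 12.9%). Of the 97 with several symbols, 53 showed it (54.6%). Replicate 3 exceeded the mean of the other arrays of its genotype by a median of 0.20 in Ts1Cje and 0.14 in disomic neurospheres over the 44 genes, and 29 of these genes had an M closer to 0 than 0.14. Across the 88 probe sets, several of which share a gene, the deviations of Ts1Cje replicate 3 and disomic replicate 3 from their genotype means correlated at r = 0.77, a description of these arrays. The same r was 0.008 for the arrays numbered 1 and 0.04 for those numbered 2. Between arrays of unlike number it ran from -0.63 (Ts1Cje 3 with disomic 2) to 0.58 (Ts1Cje 1 with disomic 2).

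Controls that are added to the labelled RNA before hybridisation shared the high replicate 3, but not the order of all arrays. The 18 probe sets of the bioB, bioC, bioD and cre controls were highest on replicate 3 within both genotypes in 18 of 18 cases. Several of these probe sets share a transcript, so the 18 are not independent. Their mean was 10.41, 10.88 and 11.15 on the Ts1Cje arrays and 10.43, 9.85 and 10.91 on the disomic ones. From Ts1Cje replicate 1 to 2 this mean rose, while the mean deviation of the ribosomal protein genes did not (-0.07 and -0.09). The mean over these controls did not separate the genotypes (exact permutation test, two-sided, p = 0.5, where 0.1 is the smallest that 3 against 3 arrays allow). Their part in the pattern of the ribosomal protein genes was not tested. The difference between 3′ and 5′ probe sets of actin was highest on Ts1Cje replicate 3 (2.26) but on disomic replicate 2 (1.83).

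**Figure D3:**
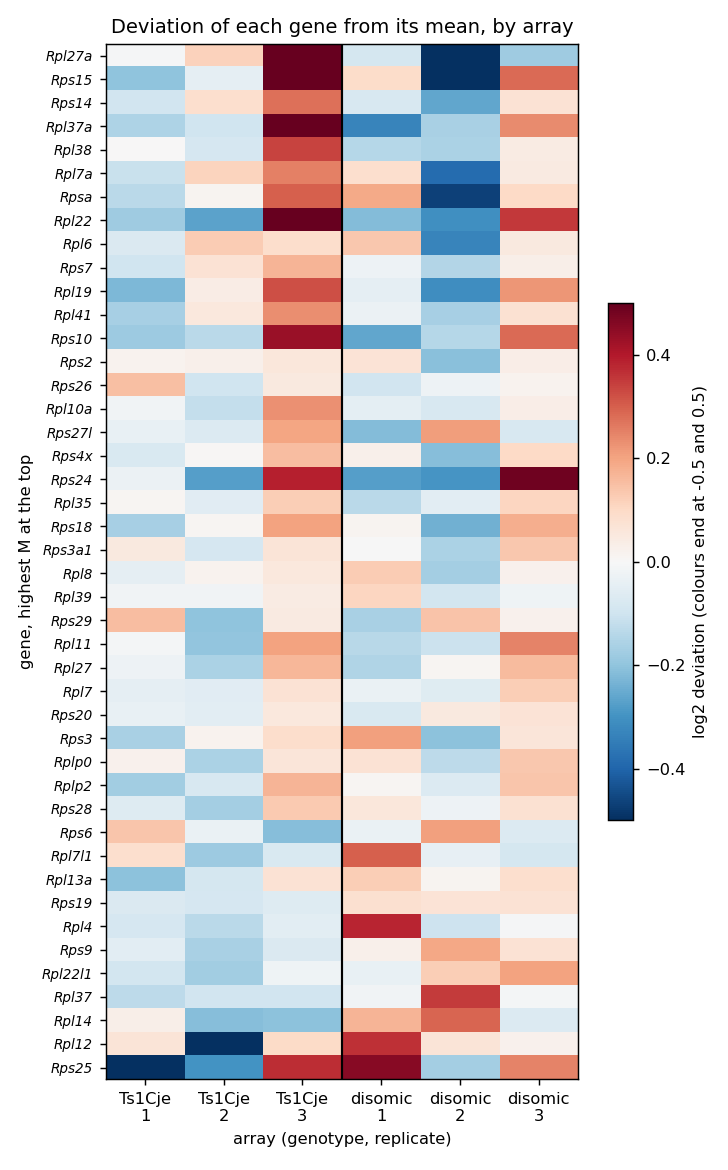
Deviation of each of the 44 genes (rows, highest M at the top) from its own mean over the 6 arrays (columns, Ts1Cje left of the line and disomic right of it), in log2 units with colours that end at -0.5 and 0.5. The columns of replicate 3 are red for most genes in both genotypes, in 23 of 44 genes as the highest array of each, while the rows of Rps19 and Rps9 near the bottom change colour at the line.

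The other genes of the pathway were taken from lists of known factors, and none of their genes passed a t of 4. The list of ribosome assembly factors leaned furthest. Of its 87 expressed genes, 65 (74.7%) had an M below 0, with a median of -0.06, and all Ts1Cje values lay below all disomic values for 7 genes (8.05%, against 5.16% of all expressed genes) and above them for 0 (against 6.12%). On the arrays its mean deviation was 0.04, -0.11 and -0.06 in Ts1Cje neurospheres and 0.13, 0.03 and -0.03 in disomic ones, so that the genotypes overlapped. Pes1, needed to process the rRNA of the large subunit, read 8.62, 8.73 and 8.69 in Ts1Cje neurospheres and 8.84, 8.76 and 8.80 in disomic ones (M -0.12, t = -3.15). Sbds, which frees the large subunit for translation and is mutated in Shwachman-Diamond syndrome in humans, read 7.02, 7.35 and 7.16 in Ts1Cje neurospheres and 7.66, 7.64 and 7.36 in disomic ones (M -0.38, t = -2.92).

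The lists for RNA synthesis and translation were more even. Of the 14 expressed genes of RNA polymerase I and its factors, which make the rRNA, 5 lay above and 9 below 0 (median M -0.04). The polymerase subunit Twistnb had an M of 0.42 and the initiation factor subunit Taf1c one of 0.44. Taf1c passed the limit for expression only through the genotype where it read higher. It stood at 5.32 ± 0.16 in Ts1Cje neurospheres and at 4.87 ± 0.26 in disomic ones (SD, n = 3 each). Its M, counted among the 5 above 0, is therefore not read as a result. Of 32 initiation factors, 14 lay above and 18 below 0 (median -0.03), with Eif5b, which joins the subunits, at 0.18 (t = 3.52) and Eif2b5, part of the exchange factor for eIF2, at -0.18 (t = -3.62). Of 9 elongation factors, 6 lay above and 3 below 0 (median 0.04), with Eif5a2 at 0.26 and Eif5a at -0.16. Fau, whose product is cut to yield a small subunit protein, had an M of 0.22 (t = 0.72).

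The 10 further genes with TOP mRNAs, 6 above and 4 below 0, had a median M of 0.05, with Nap1l1, a histone chaperone, at -0.19 and Hnrnpa1, a splicing factor, at -0.39. On the disomic arrays their mean deviation was also highest on replicate 3 (0.11), as it was on the Ts1Cje arrays (0.05). The same held for the regulators of ribosomal protein synthesis (0.17 on Ts1Cje and 0.01 on disomic replicate 3) and for the neural stem and progenitor markers (0.04 and 0.12). Of the 14 expressed regulators of ribosomal protein synthesis, 8 lay above and 6 below 0. Ddit4, an inhibitor of mTORC1 that is induced by stress, read 9.39, 8.96 and 9.67 in Ts1Cje neurospheres and 8.68, 7.54 and 7.97 in disomic ones. The M was 1.27 (SE 0.376, t = 3.39, limma adjusted p = 1) without overlap between the genotypes. Eif4ebp2, which mTORC1 inhibits to release translation, had an M of 0.08.

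**Figure D4:**
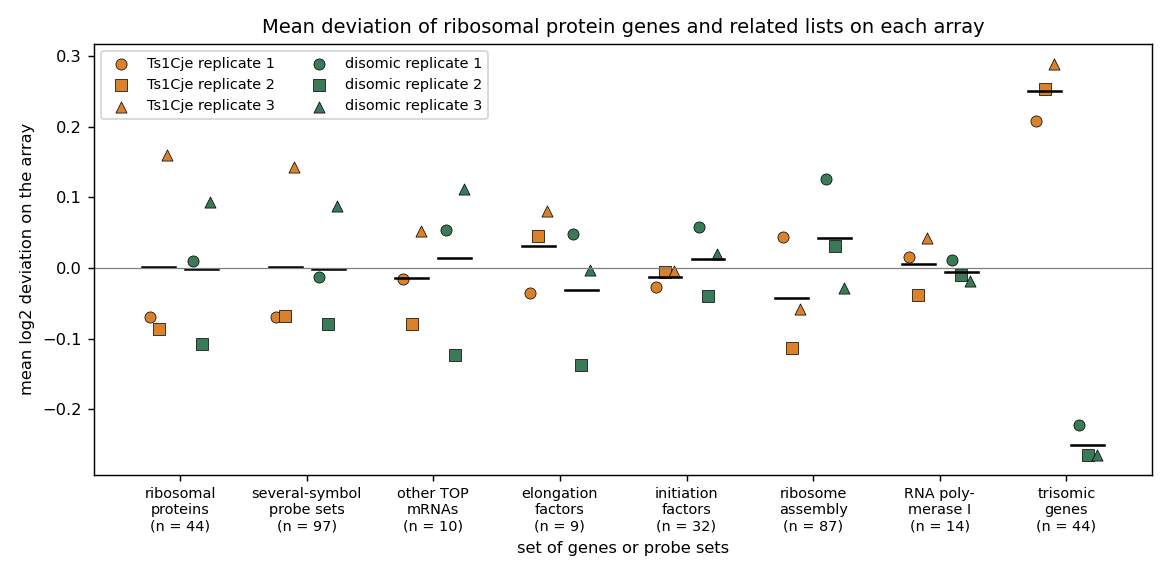
Mean log2 deviation from each gene's own mean (vertical axis) on each array for the ribosomal protein genes, the probe sets with several symbols and 6 other lists (horizontal axis, with the number of genes or probe sets), Ts1Cje in orange left of disomic in green, a symbol for each replicate number and a bar at the mean of each genotype. The bars of the ribosomal protein genes coincide near 0 with replicate 3 highest in both (0.16 and 0.09), whereas those of the 44 trisomic genes are separated without overlap.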

How the data were processed

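The authors deposited log2 intensities of 3 Ts1Cje and 3 disomic arrays, 1 value per probe set, made with GCRMA (named in the submitters' processing notes, version not given in the sources used here), which corrects background from probe composition, normalizes between arrays and summarises probes. The background correction and summary could not be repeated here. Symbols came from the platform annotation. All 6 arrays and all 45037 probe sets, without the 64 controls, entered 1 linear model with genotype as its term (limma 3.58.1 in R 4.3.3), with moderated t, two-sided, and Benjamini-Hochberg adjustment over all probe sets. The number of arrays limits the precision. Tables and figures were made with Python 3.11.15, pandas 2.3.3 and matplotlib 3.10.9, and the fit was tested on simulated data.

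A gene was represented by its brightest expressed probe set with a single symbol. Named were the members past a t of 4, the 6 highest and 6 lowest M, the 4 brightest and 4 dimmest, paralogues, stalk and 5S members, genes whose probe sets differ in M by over 0.5, and the 2 largest t of each list. Rps16 and Rps27, and the genes named with a replicate block, were added after their values were seen. The members, lists and tests were chosen with earlier results of these data known. Alternatives were a replicate block, leaving out each array, cyclic loess, array weights, a trended prior, other limits for A and other choices of probe sets. The expression tests of single genes by RT-qPCR were not used here.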

Additional observations from a re-analysis of the deposited data

Results flagged for a closer look

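Control probe sets, which stand outside the comparison of genes, differed between the genotypes. The 3 probe sets for 18S rRNA, the RNA of the small subunit, averaged 11.97, 12.36 and 12.33 on the Ts1Cje arrays and 10.24, 11.32 and 11.74 on the disomic arrays, a difference of 1.12 on the log2 scale, and of 0.69 without disomic replicate 1. The difference between 3′ and 5′ probe sets was higher in Ts1Cje than in disomic samples by 0.35 for actin and by 0.17 for Gapdh. In each case all Ts1Cje values lay above all disomic values, with an exact two-sided permutation p of 0.1, the smallest that 3 against 3 arrays allow. Whether the 18S signal followed the rRNA content of the cells was not tested. Of the pyruvate carboxylase controls, L09192_3_at averaged 8.59 in Ts1Cje and 7.92 in disomic samples, without overlap. L09192_MB_at read 5.36, 5.49 and 5.26 in Ts1Cje and 4.67, 4.58 and 5.15 in disomic samples. For L09192_5_at and L09192_MA_at, near the floor of the array, the genotypes overlapped.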

How the results depend on the processing

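The median M of the ribosomal protein genes was 0.02 with all arrays. It was lowest without Ts1Cje replicate 3 (-0.05) and highest without disomic replicate 3 (0.08). None of the ribosomal protein probe sets passed an adjusted p of 0.05 in any limma fit. With arrays left out in turn, 0 to 1 of the 88 ribosomal protein probe sets were past a t of 4 higher and 1 to 3 lower. Over all 16371 expressed probe sets the same fits called 241 to 334 higher and 147 to 456 lower. Ribosomal protein probe sets without overlap numbered 1 to 7 higher and 5 to 15 lower, where groups of fewer arrays separate more readily. The 15 lower (of 88, against 7.97% of all expressed probe sets) were found without Ts1Cje replicate 3. The 7 higher (7.95%) were found without Ts1Cje replicate 1 (against 12.1%) and without disomic replicate 3 (against 12.9%). Over all these settings 7.97% to 13.2% of all expressed probe sets were wholly lower and 9.20% to 12.9% wholly higher. With A above 7, 0 were wholly higher, and without probe sets ending in _x_at or _s_at 3 were wholly lower. The shares of all expressed probe sets under these choices are not given here. Adding the 97 expressed probe sets of several symbols to the 88 was an alternative chosen after seeing the data. Then 4 were past a t of -4 (against 0.812% of all expressed probe sets), 3 wholly higher (against 5.53%) and 8 wholly lower (against 5.21%).

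With the replicate number as a block, 2 ribosomal protein probe sets were past 4 higher (both of Rps10) and 4 lower (Rps19, Rpl13a, Rpl22 and Rplp0), and calls over all expressed probe sets grew to 499 and 582, against 158 and 133. The deviations of arrays with the same number correlated at -0.17, -0.03 and 0.13 over all expressed probe sets. The study used pairs of littermates, but no label ties a pair to a number, and not every correlation exceeded 0.1, so the numbers were not taken to pair the arrays.

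Of the alternatives for single genes, 215 kept direction and side of the threshold, 28 changed sign, 3 went past it and 4 fell short of it. With an array left out, M crossed 0 for Rpl11 (-0.10 to 0.12), Rpl37a (-0.0405 to 0.33), Rpl39 (-0.0419 to 0.0577), Rpl7l1 (-0.19 to 0.0072), Rplp0 (-0.13 to 0.0176), Rplp2 (-0.15 to 0.0179), Rps15 (-0.10 to 0.37), Rps20 (-0.0686 to 0.0036), Rps24 (-0.12 to 0.31), Rps27l (-0.0350 to 0.18), Rps29 (-0.0815 to 0.10) and Rps4x (-0.0335 to 0.12). Cyclic loess turned Rpl39 to -0.00047 and Rps29 to 0.00034, and array weights turned Rps27l to -0.0163. None of these 12 genes passed the threshold in the fit without the block, and the causes were not tested.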
